A study of Mus musculus with 32 samples.

Results

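The Tnc/Cnn1/Ltbp2 cells were single cells of the stromal vascular fraction of mouse epididymal fat that read as fibroblasts by collagen genes and carried transcripts of Tnc, Cnn1 or Ltbp2. They were chosen by raw counts of unique molecular identifiers (UMIs, 1 per captured transcript). Cells needed 300 detected genes and no more than 10% mitochondrial UMIs, and passed the collagen gate with at least 50 UMIs of Dcn, Col3a1, Col1a1 and Col1a2 together and no UMI of Ptprc, Pecam1 or Cdh5. A gated cell was a member when Tnc, Cnn1 and Ltbp2 together had at least 3 UMIs, Pi16 and Dpp4 together fewer than 3, Egr4 fewer than 2 and 6 cell cycle genes together fewer than 5. The rule found 1063 members among 6338 collagen-gated cells (16.8%) and 19564 kept cells (5.43%). The comparison cells, called the other collagen-gated cells, met the same limits with fewer than 3 UMIs of the 3 rule genes and numbered 3297.

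All 4 groups were C57BL/6 mice given diphtheria toxin for 7 days: wild type (WT) or CD169-DTR, each after 16 weeks on a normal or a high fat diet. In CD169-DTR mice the toxin receptor is tied to CD169, the macrophage lectin encoded by Siglec1, and the series asks what the loss of such macrophages does to other cells of lean and obese fat. Leukocytes (CD45+) and the remaining cells (CD45-) were collected apart by sorting, which gated out much of the F4/80-high and Ly6C-high fraction, and mixed 1:1 before 10x Genomics 3′ sequencing. The sex and age of the mice and the number pooled per library are not given in the sources used here. Each group had 1 library, so nothing below was tested. Every interval is a 95% interval of counting error and says nothing of variation between mice.

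The libraries held 4014 to 6696 barcodes each, and the median kept cell had 6218 to 9202 UMIs. Siglec1 went against its label: it had 0.136 CPM (the gene's UMIs scaled to the total of the cells summed) over all kept cells in normal diet labelled WT and 3.45 in its DTR partner. With high fat diet the 2 values were 1.09 and 3.05. The groups are therefore named by their label throughout. Of the members, 15 had a barcode sequence that was also present in another library. In none of those pairs were both barcodes members, and in 12 the partner had fewer than 1000 UMIs. The 3 libraries with members are listed below in one order: normal diet labelled DTR, high fat diet labelled WT, high fat diet labelled DTR. Without the 15 members the shares given below would be 3.78%, 2.96% and 36.6%.

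Myofibroblasts are fibroblasts that have assembled smooth muscle actin into contractile fibres, and they lay down and tighten matrix in healing wounds and in fibrosis. Transforming growth factor beta (TGF-beta) and mechanical tension are their best known inducers, acting through SMAD proteins and through serum response factor with its myocardin-related partners. Tnc encodes tenascin-C, a matrix protein of tissue under repair. Ltbp2 encodes a latent TGF-beta binding protein of elastic microfibrils, and Cnn1 encodes calponin, an actin-binding protein of smooth muscle. Acta2 (smooth muscle actin) and Postn (the matrix protein periostin) are markers of the label that the rule did not use.

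The genes lie apart in the mouse genome (GRCm38): Tnc on chromosome 4 from 63959785 to 64047015 (minus strand), Ltbp2 on chromosome 12 from 84783212 to 84876532 (minus strand) and Cnn1 on chromosome 9 from 22099216 to 22109630 (plus strand). Acta2 lies on chromosome 19 from 34241090 to 34255590 (minus strand) and Postn on chromosome 3 from 54361109 to 54391037 (plus strand). The 250 bases before the start site of Acta2, Cnn1 and Tnc are shown because Acta2 defines the label, Tnc chose many members and Cnn1 chose few. They start from the RefSeq start sites, which differ from the gene bounds given above (GENCODE), so that part of the Acta2 and Cnn1 windows lies inside those bounds. They are from RefSeq (GRCm38.p6), read 5′ to 3′ on the strand of the gene, with matches to 3 motifs in capitals. The windows are chr19:34255374-34255623 for Acta2, chr9:22099003-22099252 for Cnn1 and chr4:64047016-64047265 for Tnc.
Acta2: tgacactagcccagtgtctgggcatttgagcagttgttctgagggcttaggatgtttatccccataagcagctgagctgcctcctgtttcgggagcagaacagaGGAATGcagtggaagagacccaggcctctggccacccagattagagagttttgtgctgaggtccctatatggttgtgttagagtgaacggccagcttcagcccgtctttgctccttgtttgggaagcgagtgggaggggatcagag
Cnn1: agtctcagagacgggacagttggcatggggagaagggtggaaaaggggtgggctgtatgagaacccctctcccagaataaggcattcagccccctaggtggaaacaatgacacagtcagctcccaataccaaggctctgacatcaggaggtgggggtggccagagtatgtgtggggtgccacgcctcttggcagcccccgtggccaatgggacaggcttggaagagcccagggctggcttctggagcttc
Tnc: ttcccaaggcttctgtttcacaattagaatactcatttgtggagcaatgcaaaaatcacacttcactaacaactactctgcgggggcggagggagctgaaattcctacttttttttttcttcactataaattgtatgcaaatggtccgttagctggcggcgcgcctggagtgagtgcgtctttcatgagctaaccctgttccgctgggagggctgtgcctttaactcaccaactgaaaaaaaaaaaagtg

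Both strands were searched for the CArG box of serum response factor, spelled CCWWWWWWGG, where W is A or T. The second motif was that of the TEAD factors, partners of YAP, spelled CATTCC. The third was that of the AP-1 factors, spelled TGACTCA. The Acta2 window held 1 match to the TEAD motif, on the opposite strand 146 to 141 bases before the start, and no exact match to the other 2 motifs. Its stretches ccctatatgg and ccttgtttgg each differ from the CArG spelling by 1 base, so the exact search did not count them. The Cnn1 and Tnc windows held no exact match to any of the 3. Among 32851 RefSeq windows of the same length, 1.47% held a CArG box, 12.6% the TEAD motif and 4.46% the AP-1 motif. Of the 16 genes of the contractile list used below that had a window, 9 held the TEAD motif (Acta2, Cald1, Flna, Lmod1, Mylk, Smtn, Tagln2, Tpm1 and Vcl), 2 a CArG box (Myl9 and Vcl) and 2 the AP-1 motif (Cald1 and Mylk). The shares are of windows, 32851 for 27025 genes, while the list was counted by gene, where any window of a gene sufficed. Counts and shares are therefore on different scales, and no excess is read from them. Of the 11 genes given below as higher in members, 5 had a window. Among these 5, 1 (Acta2) held the TEAD motif and 0 held a CArG box or the AP-1 motif. A match describes these letters and is not a bound site.

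Members were found in 3 of the 4 libraries. Normal diet labelled WT had 0 members among 1057 collagen-gated cells, with a Clopper-Pearson upper limit of 0.348% (0.284% by a floor of 3 counts). Normal diet labelled DTR had 47 of 1033 (4.55%, Clopper-Pearson interval 3.36 to 6.00%) and high fat diet labelled WT had 49 of 1621 (3.02%, 2.24 to 3.98%). High fat diet labelled DTR had 967 of 2627 (36.8%, 35.0 to 38.7%), or 91.0% of all members. That share was 12.2 times that of high fat diet labelled WT and 8.09 times that of normal diet labelled DTR. A share cannot tell more members from fewer cells of other kinds.

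Members were deep cells, and the rule counts UMIs at each cell's own depth. Their median depth was 19306, 19174 and 14414 UMIs in the 3 libraries, against 9673 to 11972 in the other collagen-gated cells of the 4 libraries. When every cell was thinned to 4000 UMIs, members were 0 of 1038 cells, 12 of 981 (1.22%), 13 of 1614 (0.805%) and 503 of 2484 (20.2%), in the order normal diet labelled WT, normal diet labelled DTR, high fat diet labelled WT and high fat diet labelled DTR. That step left out 48, 52, 71 and 111 shallower gated cells. High fat diet labelled DTR stood far above the other libraries at either depth.

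**Figure D1:**
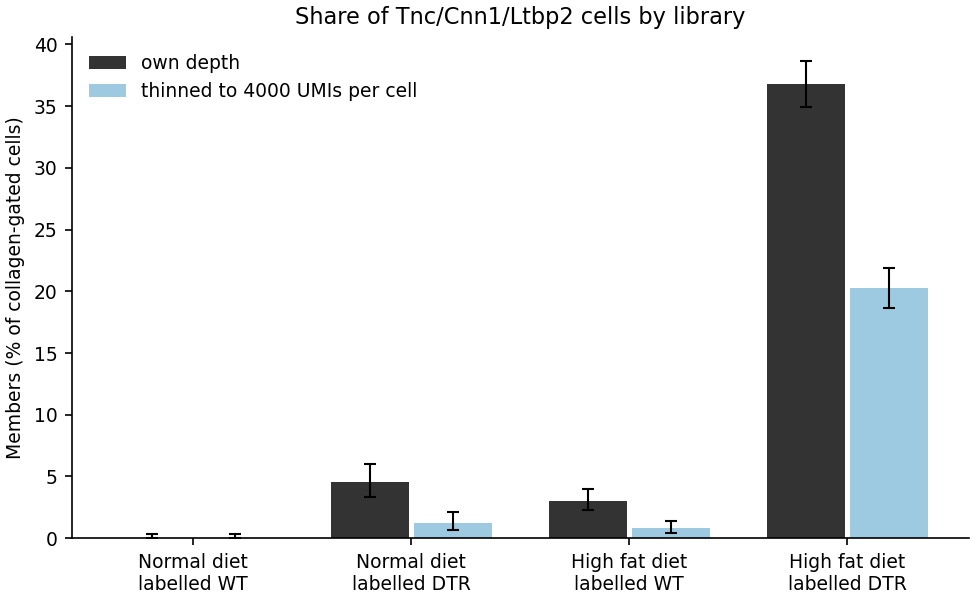
Members as a percentage of the collagen-gated cells of each library (bars), with 95% Clopper-Pearson intervals, at each cell's own depth (dark) and after thinning every cell to 4000 UMIs (light). High fat diet labelled DTR is at 36.8% and 20.2%, and each of the other libraries is under 5% at either depth.

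The limits of the rule removed further cells with the 3 genes, mostly in the same library. Among gated cells, 1, 55, 79 and 1435 had at least 3 UMIs of Tnc, Cnn1 and Ltbp2 in the library order above. Of the 1435 cells, 321 were left out for Pi16 and Dpp4 (markers of early progenitors), 143 for Egr4 and 59 for cell cycle genes. The 3 genes reached the limit in that library in 41.5% of the cells set aside for Pi16 and Dpp4, in 71.1% of those set aside for Egr4 and in 64.1% of the cycling cells. Of the cells within the other limits, 99.2% had none of the 3 genes in normal diet labelled WT and 18.5% had none in high fat diet labelled DTR. Just inside the limit, 140 cells of high fat diet labelled DTR had exactly 3 UMIs. Just outside it, 149 had exactly 2.

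Tnc and Ltbp2 carried the rule. These are values that chose the cells and are given as a description. Tnc stood at 261, 240 and 257 CPM in the members of the 3 libraries. Ltbp2 stood at 122, 138 and 403 CPM in the same order, so the third library was the higher for Ltbp2 alone. Both genes were detected together in 38.3% (24.5 to 53.6%) and 40.8% (27.0 to 55.8%) of members in the first 2 libraries and in 67.7% (64.7 to 70.7%) in the third. Cells that hold immune transcripts (Ptprc) and little collagen give the background of free RNA: Tnc was seen in 0.252 to 3.21% of them and Ltbp2 in 0.168 to 2.43%, at median depths of 5555 to 6815 UMIs.

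Cnn1 contributed little. It had 49 UMIs in 23 of the 967 members of high fat diet labelled DTR, or 3.26 CPM (2.41 to 4.31), and none in the 47 and 49 members of the other 2 libraries. A count of 0 there allows detection in up to 6.38% and 6.12% of members, which limits cells with a UMI and not cells that express the gene. The matching levels, 3.23 and 3.13 CPM, lie within the interval of the third library. Only 5 members had 3 or more Cnn1 UMIs, whatever their Tnc and Ltbp2. Of the 23 members with Cnn1, 18 had all 3 genes, and 1 of the 967 had neither Tnc nor Ltbp2.

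Periostin was near universal among members and smooth muscle actin was not. Postn was detected in 95.7%, 98.0% and 98.9% of members, at 1882, 1620 and 1868 CPM. It was also common in the other collagen-gated cells of the same libraries, which were shallower, at 82.9%, 72.0% and 94.8%. Acta2 was detected in 25.5%, 42.9% and 48.9% of members in that order, at 108 (87.6 to 131), 255 (224 to 289) and 474 (463 to 485) CPM. Its median was 0 UMIs per cell in each library. In Ptprc-positive cells Postn was seen in 0.673 to 12.2% and Acta2 in 0.444 to 3.21%. In high fat diet labelled DTR the tenth of members richest in Acta2 held 76.9% of its UMIs, and 152 members (15.7%) had 10 or more. In the 2 small sets 5 cells held 86.0% and 76.3% of the Acta2 UMIs. The label of a myofibroblast-like cell therefore fits the markers in part: the defining actin was not seen in 51.1% of members of the largest set, and calponin in nearly all.

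Genes of other cell types were checked beside these values. Fibroblast genes were present throughout: the 10 identity genes summed to 8894 to 9272 CPM in members and 7147 to 9969 CPM in the other cells, and Pdgfra, a receptor that marks fibroblasts, was seen in 77.0 to 93.6% of members. Genes of mural cells (pericytes and vascular smooth muscle, which also make Acta2) summed to 332 to 363 CPM in members and 206 to 223 CPM in the other cells, with Kcnj8 and Cspg4 at 0 in normal diet labelled DTR. The defining pericyte gene Rgs5 stood at 1.04 to 1.33 CPM in members and at 1.10, 0.810 and 0.139 CPM in other cells. Myh11, the myosin of smooth muscle, was lower in members, at 11.8, 1.04 and 4.00 CPM against 17.3, 17.3 and 7.36 CPM. Notch3, a receptor of mural cells, stood at 71.1, 52.1 and 46.1 CPM in members and 36.6, 21.1 and 31.6 CPM in other cells. Of members, 23.4%, 12.2% and 9.72% had 3 or more UMIs of 4 mural genes (Rgs5, Kcnj8, Notch3 and Myh11 together), against 8.83%, 4.18% and 3.04% of the other cells. Among these 4, Notch3 had 66, 50 and 692 UMIs in members and Myh11 11, 1 and 60. That limit counts UMIs at each cell's own depth. Median depths were 19306, 19174 and 14414 UMIs in members and 11972, 10758 and 9826 in the other cells. The part of depth in these shares, and of mural transcripts in the results, was not tested. Endothelial genes outside the rule summed to 1363, 1401 and 704 CPM in members and 1035, 1000 and 741 CPM in other cells. Most of that was Fabp4, a lipid chaperone of endothelium and fat cells, at 1311, 1314 and 676 CPM in members. The endothelial genes Kdr, Emcn and Cldn5 were at 0 in the first set of members and Tie1 in the other 2. Mesothelial genes summed to 95.9 to 248 CPM against 173 to 581 CPM, macrophage genes to 53.8 to 194 CPM against 45.3 to 156 CPM, and lymphoid genes to at most 7.54 CPM. Without cells that had 3 or more UMIs of those 4 mural or of 3 mesothelial genes (Msln, Upk3b and Krt19), members were 3.95%, 2.81% and 36.3% of gated cells.

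Members differed from the other collagen-gated cells of their own library by a short list of genes. The rule used this contrast, so the values describe the cells and nothing is read from the counts. Of 9131 measured genes outside the rule, 11 (0.120%) were at least 2-fold higher and 29 (0.318%) at least 2-fold lower in each of the 3 libraries. The 11 were Acta2, Tagln, Actn1, Ccnd1, Foxs1, Foxc2, Cadm4, Tcim, Pde1b, Dio3 and Cxcl5. For 9 of the 11, and for 22 of the 29, every counting interval excluded 0. After thinning to 4000 UMIs with a rule sum of at least 1, where 6579 genes had enough UMIs, 1 of the 11 was still 2-fold higher in each library. That call also needs 50 UMIs in each library at the lower depth. Taken without that limit, median log2 ratios there were 2.85 (Tagln), 2.28 (Cadm4), 1.86 (Acta2), 1.80 (Foxs1), 1.27 (Dio3) and 1.25 (Cxcl5). The rest were 1.05 (Actn1), 1.01 (Foxc2), 0.998 (Tcim), 0.671 (Pde1b) and 0.291 (Ccnd1).

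Acta2 stood at 30.7, 12.5 and 107 CPM in the other cells of the 3 libraries, against the member levels above. The log2 ratios of members over other cells were 1.81, 4.36 and 2.14, and 1 cell held 44.1% of the member UMIs in high fat diet labelled WT. Tagln, which encodes the actin-binding protein transgelin, had 664, 694 and 802 CPM in members, with log2 ratios over the other cells of 2.99, 5.12 and 2.42. A single cell held 52.1% of the Tagln UMIs of the members in high fat diet labelled WT. Actn1, an actin cross-linker, had 98.0, 117 and 193 CPM in members against 48.2, 25.3 and 93.7 CPM. Members were higher for these 3 genes in each library that had them.

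Of the 16 measured genes of the contractile list, these 3 reached 2-fold in every library and 0 fell by as much. The list's median log2 ratio was 0.55, 0.73 and 0.48 in the 3 libraries, beside 0.02, 0.02 and 0.03 over all measured genes. Tpm2, a tropomyosin, had ratios of 1.24, 1.94 and 0.74, and Mylk, the kinase that activates myosin, -0.83, -0.11 and 0.25.

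The other 8 genes had varied roles. Foxs1 had 39.8, 38.6 and 117 CPM in members and 14.3, 6.72 and 43.4 CPM in other cells, and Foxc2 had 12.9, 15.6 and 31.3 against 5.74, 3.97 and 14.2 CPM. Both encode forkhead transcription factors. Ccnd1 (cyclin D1, which drives entry into the cell cycle) had 32.3, 30.2 and 17.8 CPM against 8.71, 6.72 and 8.19 CPM, in cells from which strong cell cycle expression had been excluded by the rule. After thinning, which left enough members in high fat diet labelled DTR alone, its ratio there was 0.49. Foxs1 (0.78), Cxcl5 (0.54), Dio3 (0.24), Pde1b (0.31), Tcim (0.64), Actn1 (0.90) and Cadm4 (0.95) were also under 2-fold. Of the 11 genes 3 stayed 2-fold higher: Tagln (2.05), Acta2 (1.91) and Foxc2 (1.02). Dio3, an enzyme that inactivates thyroid hormone, had ratios of 1.06, 1.25 and 2.17, with 70.0% of its 10 member UMIs in 1 cell of high fat diet labelled WT. Cxcl5, a neutrophil chemokine, had ratios of 1.00, 3.54 and 1.39, but 1 cell held 98.2% of its member UMIs in high fat diet labelled WT.

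Inhba and Il11 stood out among signals in the 2 smaller sets of members. Inhba, which encodes an activin subunit of the TGF-beta family, had 115 and 213 CPM in members against 18.9 and 37.5 CPM in other cells in those libraries, ratios of 2.61 and 2.50. Inhba in high fat diet labelled DTR had 137 CPM in members and 120 in other cells, a ratio of 0.20. Il11, a cytokine known for its part in fibrosis, had ratios of 1.83, 2.60 and 0.39. The other cells of high fat diet labelled DTR thus lay near their members for both genes. The 12 receptors and mediators of TGF-beta signals had medians of 0.03, -0.14 and -0.06, with none past 2-fold in every library.

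For matrix genes, too, the ratio was lowest in high fat diet labelled DTR. The 14 measured matricellular genes had median ratios of 0.69, 0.97 and 0.31, and the 13 measured collagen chains outside the rule 0.50, 0.83 and 0.19, with no gene of either list at 2-fold in all 3 libraries. Postn had 843, 589 and 1512 CPM in the other cells of the 3 libraries, 182 in those of normal diet labelled WT, and ratios of 1.16, 1.46 and 0.31. Timp1, an inhibitor of matrix proteases, had 2624, 2319 and 2650 CPM in members and 1184, 748 and 1688 CPM in other cells. Members thus lay within 1620 to 1882 CPM for Postn and 2319 to 2650 CPM for Timp1. The other cells of the same 3 libraries spanned 589 to 1512 and 748 to 1688 CPM. Those of normal diet labelled WT, which had no members, stood at 182 and 247 CPM.

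**Figure D2:**
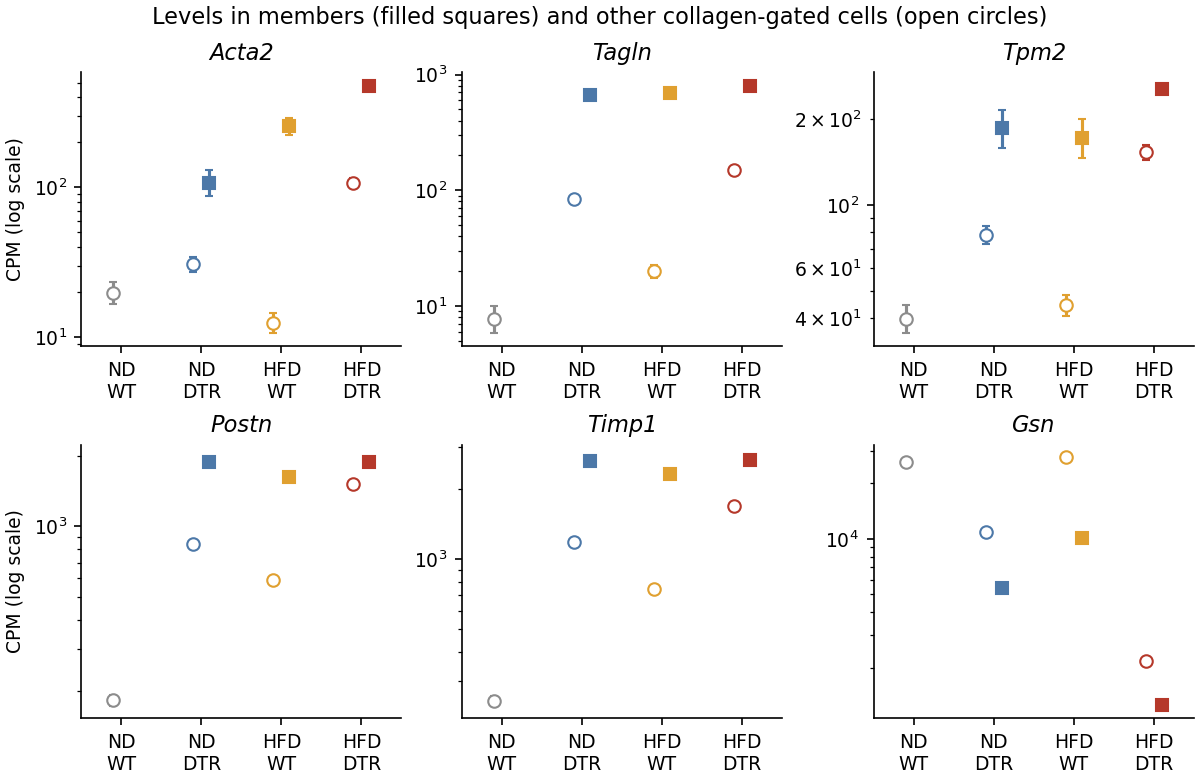
Levels of 6 genes in CPM (log scale) in members (filled squares) and other collagen-gated cells (open circles) of each library, with 95% Poisson intervals (ND, normal diet; HFD, high fat diet; WT and DTR as labelled). Acta2, Tagln, Tpm2, Postn and Timp1 are higher in members in each library that has them, and Gsn is lower.

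The genes lower in members included Inmt, Scara5, C7, Zbtb16 and the mesothelial gene Upk3b. Inmt, a methyltransferase, had 30.1, 15.6 and 3.33 CPM in members against 274, 440 and 15.1 CPM, ratios of -3.18, -4.81 and -2.18. Scara5, a ferritin receptor, had 38.8, 53.2 and 19.6 CPM against 193, 212 and 59.0 CPM. C7, a complement component, had ratios of -1.65, -1.57 and -1.47, and Zbtb16, a zinc finger transcription factor, -1.55, -1.66 and -1.50. Upk3b had 3 UMIs (all in 1 cell), 0 and 63 UMIs in the members of the 3 libraries. The 12 quiescent or committed fibroblast genes had medians of -0.57, -1.42 and -0.38, with Inmt alone past 2-fold in every library. Gsn (gelsolin, which severs actin filaments) had 5407, 10129 and 1263 CPM in members against 10910, 27725 and 2183 CPM.

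The summed contractile genes were highest in cells with the largest rule sum in each library with members, while Acta2 alone did not follow one order. In high fat diet labelled DTR, Acta2 stood at 65.8 CPM in cells with none of the 3 rule genes, 115 CPM at 3 UMIs and 740 CPM at 10 or more, with 162 CPM at 2. The summed contractile list stood at 3480, 3934 and 7269 CPM in the same cells. In high fat diet labelled WT the contractile sum went from 2386 CPM at 0 to 7779 CPM at 10 or more, over 1058 and 10 cells. The same sum went from 2776 to 6495 CPM in normal diet labelled DTR. Acta2 there had 23.3 CPM at 0, 172 CPM at 3, 28.4 CPM at 5 to 9 and 122 CPM at 10 or more, with 13 cells in each of the last 3 groups. The quiescent list went from 33226 to 9036 CPM in high fat diet labelled WT, and from 3652 to 2627 CPM in high fat diet labelled DTR. Median depth rose along the same axis, from 8955 to 17198 UMIs in high fat diet labelled DTR, and its part in these values was not tested.

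**Figure D3:**
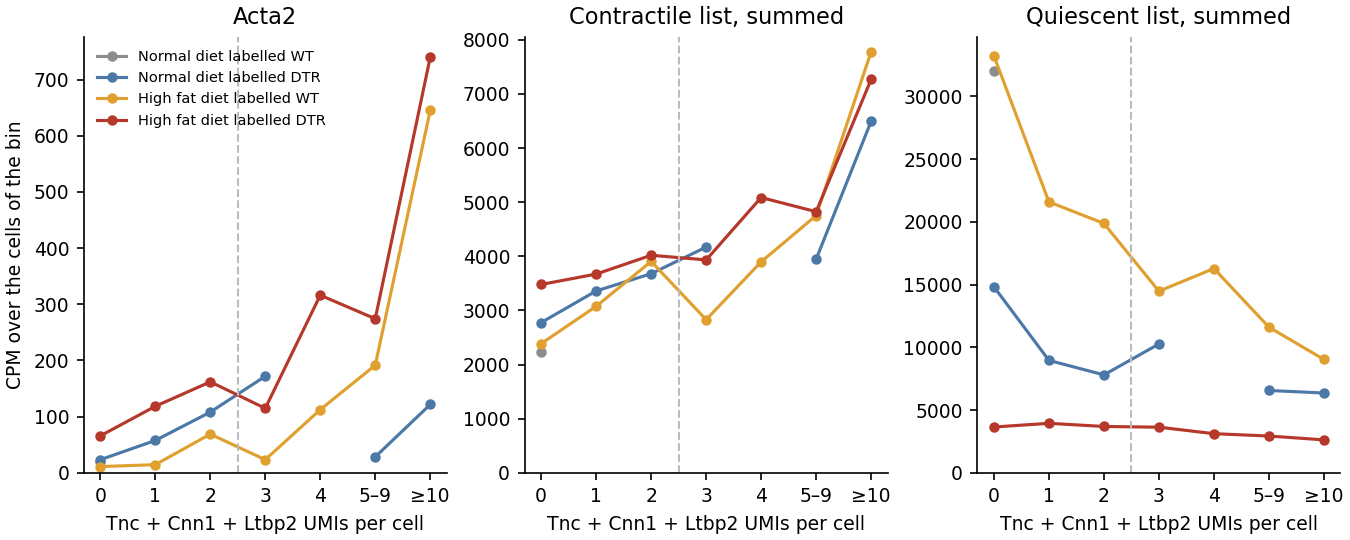
CPM of Acta2, of the summed contractile list (18 genes) and of the summed quiescent list (12 genes) in cells binned by their Tnc, Cnn1 and Ltbp2 UMIs, by library. Bins under 10 cells are not drawn, and the dashed line marks the rule's limit. In high fat diet labelled DTR Acta2 goes from 65.8 to 740 CPM, and in high fat diet labelled WT the quiescent sum goes from 33226 to 9036 CPM.

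Members were cut in order, by Cnn1, then Tnc, then Ltbp2, which gave a Tnc kind and an Ltbp2 kind. These are not separate populations, and 60 members of high fat diet labelled DTR reached the rule by the sum alone. With 3 UMIs of a gene as the limit, the Tnc kind (any Ltbp2, Cnn1 under 3) made up 61.7% (46.4 to 75.5%), 65.3% (50.4 to 78.3%) and 48.5% (45.3 to 51.7%) of members in the 3 libraries. The Ltbp2 kind (Tnc under 3) made up 31.9%, 32.7% and 44.8%. A limit of 2 UMIs moved the third library to 60.0% and 39.1%.

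The Tnc kind of high fat diet labelled DTR, 469 cells, held more of the contractile transcripts than its 433 cells of the Ltbp2 kind. Median depths were 16167 and 13030 UMIs, and the part of depth was not tested. Since the kinds were cut by genes measured in the same cells, the ratios describe them. Tagln had 1132 CPM in the Tnc kind and 368 in the Ltbp2 kind, a log2 ratio of 1.62 (1.55 to 1.69), and Acta2 had a ratio of 1.84. Actg2, the enteric form of smooth muscle actin, had 10.6 against 1.32 CPM. Over 10276 measured genes, 69 (0.671%) were 2-fold higher and 59 (0.574%) 2-fold lower in the Tnc kind. Of the 18 contractile genes 4 were 2-fold higher, and all 18 ratios were above 0, from 0.23 (Pdlim5) to 3.01 (Actg2). By contrast the collagen chains had a median of 0.13 and the TGF-beta response genes -0.05, beside 0.05 over all genes.

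Mesothelial genes were lower in the Tnc kind of high fat diet labelled DTR. Of 6 measured mesothelial genes 5 were 2-fold lower, and Krt8, a keratin, had 0.124 against 11.6 CPM. Only 8 of the 967 members had 3 or more UMIs of the 3 mesothelial genes used above. The quiescent list had 0 of 11 genes past 2-fold and a median of -0.14, and the adipogenic list 0 of 11 and 0.30. Single genes did not hold across libraries. Hp, the haptoglobin gene, had 204 CPM in the Tnc kind and 545 in the Ltbp2 kind here, but 836 against 651 CPM in normal diet labelled DTR and 143 against 29.3 CPM in high fat diet labelled WT. Scara5 had 9.14 against 33.1 CPM here, 33.2 against 36.0 and 32.9 against 102 CPM in the other 2. Tagln was higher in the Tnc kind in each, with 924 against 255 CPM and 958 against 91.4 CPM in the smaller sets.

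A sharper view came from Acta2 itself, a grouping made after its values had been seen. In high fat diet labelled DTR 152 members had 10 or more Acta2 UMIs and 494 had none, at median depths of 18056 and 12690 UMIs. Those with 10 or more were 24.9% (21.1 to 29.1%) of the Tnc kind, 6.70% (4.53 to 9.48%) of the Ltbp2 kind and 4 of the 5 cells with 3 or more Cnn1 UMIs. They were 2.75% of the other collagen-gated cells of that library. In the small sets of members they numbered 3 of 47 and 7 of 49.

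Acta2-rich members were high in most other contractile genes. Of 9559 measured genes, 143 (1.50%) were 2-fold higher and 269 (2.81%) 2-fold lower in them than in members without Acta2. Of the 17 measured contractile genes other than Acta2, 12 were 2-fold higher and 0 lower, with a median log2 ratio of 1.56 beside -0.07 over all genes. Tagln had 2930 against 170 CPM, Myl9 (a regulatory light chain of myosin) 527 against 93.7 CPM and Tpm2 629 against 140 CPM. Actg2 had 88 UMIs against 0, at least 6.10 higher on the log2 scale by the floor of 3 UMIs over the cells without Acta2. Lmod1, a leiomodin that builds actin filaments in muscle, had 54 UMIs against 9.

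Most matrix genes differed by less than 2-fold between these cells. The 15 measured collagen chains had a median log2 ratio of -0.15 with Col8a1 alone past 2-fold (1.16), and the 15 measured matricellular genes a median of 0.06 with Wisp2 alone past it (2.25). Postn had a ratio of -0.24. Ctgf, a matricellular target of both TGF-beta and YAP, had 412 against 123 CPM, and 4 of 10 YAP and serum response factor targets were 2-fold higher. On the other side lay Vldlr, a lipoprotein receptor, at 6.92 against 32.5 CPM, Cd55, a complement inhibitor of early progenitors, at 26.3 against 84.1 CPM, and Penk, an opioid precursor, at 4.84 against 20.6 CPM. The mural gene Des (desmin) was also higher, at 439 against 188 CPM.

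**Figure D4:**
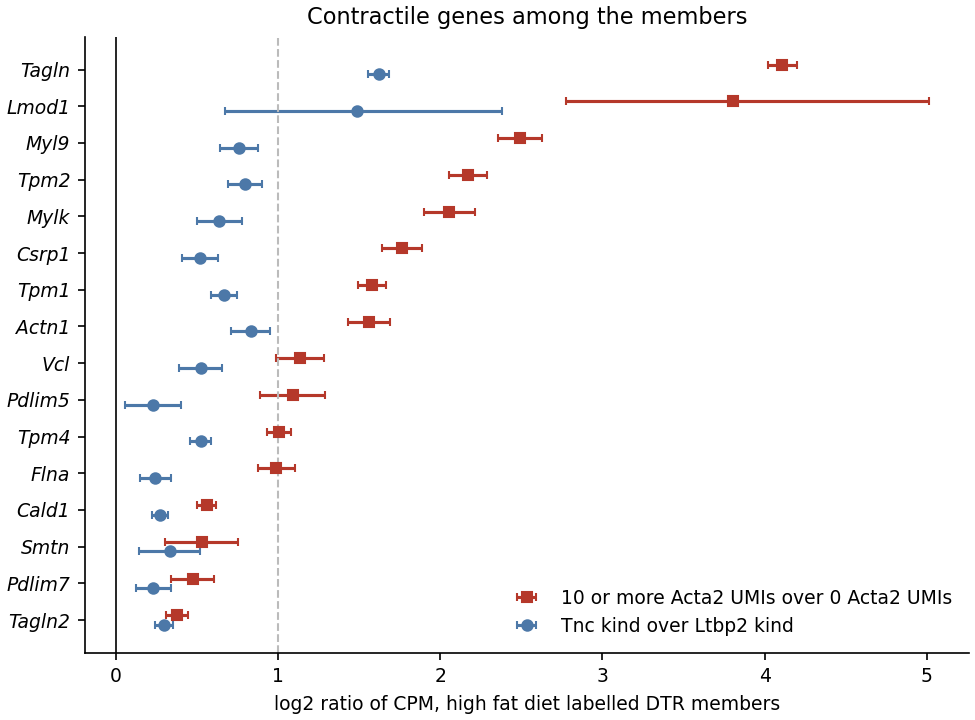
Log2 ratios of CPM for the contractile genes among the members of high fat diet labelled DTR, with 95% counting intervals: members with 10 or more Acta2 UMIs over members with none (squares) and the Tnc kind over the Ltbp2 kind (circles). Dashed line, 2-fold; Acta2, and Actg2 with 0 UMIs on one side, are not drawn. All points lie above 0, and Tagln is the highest, at 4.11 and 1.62.

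Members could be compared between libraries in 2 ways, in high fat diet (labelled DTR over labelled WT) and among those labelled DTR (high fat over normal diet). Both use the 967 members of the high fat DTR library, so they are not independent, and normal diet labelled WT had no members to compare. The smaller sets held 49 and 47 cells, so a single cell can set the level of a gene, and the share of UMIs in the richest cell is given where it was large.

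Between the high fat diet libraries, interferon response genes were the list that differed most in members. Of 10433 measured genes 1640 (15.7%) were 2-fold higher and 187 (1.79%) 2-fold lower, with a median of 0.27 over all genes. Scaling by TMM, a method that allows for a few abundant genes, lowered every ratio by 0.18 and gave 1248 higher and 323 lower. Of the 20 interferon response genes 17 were 2-fold higher and 0 lower, with a median log2 ratio of 2.81. The other collagen-gated cells had a median of 2.23 for the same list and 0.28 over the same genes.

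Isg15, a ubiquitin-like protein made in response to interferon, had 494, 34.4 and 474 CPM in the members of the 3 libraries. Ifit3 had 245, 8.34 and 159 CPM and Ifit1 495, 11.5 and 157 CPM. High fat diet labelled WT was the low library for each, and even there 1 cell held 84.8%, 62.5% and 81.8% of the UMIs. Among the 8 highest ratios outside the rule were the T-cell chemokines Cxcl9, with 1 UMI against 1447, a ratio of 6.53 (4.05 to 11.84), and Cxcl10, with 8 against 5570 UMIs, a ratio of 5.48 (4.50 to 6.69). Rsad2 had 2 against 1002 UMIs, with an interval of 3.14 to 8.05, and Igtp 1 against 440 UMIs, a ratio of 4.81 (2.33 to 10.12). H2-Q6, a class I histocompatibility gene, had 0 against 1735 UMIs and was at least 5.21 higher on the log2 scale. In the other collagen-gated cells the ratios were 0.89 (Cxcl9), 1.78 (Cxcl10), 1.21 (Rsad2), 1.65 (Igtp) and 4.56 (H2-Q6). Among members of the DTR library, Isg15 was seen in 73.2%, Cxcl9 in 17.5% and Rsad2 in 12.1%.

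Gdf15, Dbp and Pcdh9 were also among the 8 highest ratios. Gdf15, a stress-induced hormone of the TGF-beta family, had 0 UMIs in the 49 members of high fat diet labelled WT and 1367 in its DTR partner, at least 4.86 higher on the log2 scale. In the other collagen-gated cells of the same libraries Gdf15 stood at 30.04 and 76.5 CPM, a ratio of 1.35. Dbp, a clock-controlled transcription factor, had 1 against 907 UMIs, a ratio of 5.86 (3.38 to 11.16), and 3.42 in the other cells. Spp1, which encodes osteopontin, had ratios of 3.53 in members and 3.42 in the other cells. The cell adhesion gene Pcdh9 had 1 against 406 UMIs, a ratio of 4.70, and 2.33 in the other cells. These sizes depended on the setting: after thinning with a rule sum of at least 1 the ratios were 0.77 for Gdf15, 1.49 for Dbp, 1.37 for Igtp, 3.03 for Rsad2, 3.45 for Cxcl9 and 3.63 for H2-Q6.

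The 8 lowest ratios were Hsd11b1, Hmcn2, Penk, C7, Prg4, Gsn, Cyp4b1 and Tmem204. Hsd11b1, the enzyme that activates glucocorticoid in fat, stood at 120 CPM in members of high fat diet labelled WT and 9.72 in those labelled DTR, a ratio of -3.62 (-3.99 to -3.26). Gsn went from 10129 to 1263 CPM, a ratio of -3.00 (-3.04 to -2.97). Penk had a ratio of -3.32, with 80.7% of its UMIs in the WT library in 1 cell, and -0.97 among cells chosen by Tnc alone. Prg4 (lubricin) and Cyp4b1, a cytochrome P450, had ratios of -3.02 and -2.82 in members and -1.07 and -0.41 in the other cells. In members and then the other cells, Hmcn2 had -3.55 and -4.14, C7 -3.13 and -3.23 and Tmem204 -2.71 and -2.09. The other cells had -5.25 for Hsd11b1, -3.67 for Gsn and -3.33 for Penk.

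Collagen chains differed in both directions between these members. The 18 contractile genes had a median of 0.40 with 4 at 2-fold, and Acta2 had a ratio of 0.89 in members and 3.11 in the other cells. For Tagln the values were 0.21 and 2.91. The 15 measured collagen chains had a median of -0.46, with 3 higher (Col7a1 at 2.96) and 4 lower (Col6a3 at -1.40), beside 15.7% higher and 1.79% lower of all genes. P4ha3, a collagen proline hydroxylase, had 2 against 299 UMIs. Of 14 TGF-beta response genes 0 were higher and 2 lower, with Tgfbi at -1.80. In the other cells the quiescent list had a median of -2.29, and in members -0.71.

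Among the members labelled DTR, high fat diet over normal diet, 1232 of 10448 genes (11.8%) were 2-fold higher and 437 (4.18%) 2-fold lower, with a median of 0.15. The interferon list was not part of this difference upward: 0 of 20 were higher and 7 lower, with a median of -0.57 in members and -1.30 in the other cells. The inflammatory list was lower, with 12 of 20 genes past 2-fold, 1 higher and a median of -1.22, beside -0.93 in the other cells. Ptgs2, the inducible prostaglandin synthase, stood at 370 CPM with normal diet and 66.8 CPM with the other. Ccl11, an eosinophil chemokine, stood at 2160 and 401 CPM, and Ptx3, a soluble pattern receptor, at 1696 and 488 CPM. The exception was Il1rl1, the receptor of interleukin 33, at 6.46 and 23.0 CPM, with all 6 UMIs of normal diet in 1 cell.

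Matrix genes differed in both directions. Of 15 collagen chains 3 were higher and 3 lower, with a median of -0.34 (Col4a1 at -1.39). Of 15 matricellular genes 4 were higher and 2 lower, with a median of 0.28 (Vcan at -1.30). Over all measured genes 11.8% were higher and 4.18% lower, so a few genes past 2-fold say little of either list. Of 10 YAP and serum response factor targets 4 were higher and 0 lower, with a median of 0.76. Acta2 was 2-fold higher, with a ratio of 2.14 (1.81 in the other cells), and Ctgf had 18.3 and 195 CPM, a ratio of 3.42. Wisp2, a matricellular relative of Ctgf, had 7 UMIs in normal diet, 6 of them in 1 cell, and 1645 in high fat diet, a ratio of 3.86 (2.82 to 5.18). Col8a1, a short-chain collagen, stood at 16.1, 465 and 225 CPM in the 3 libraries. Wisp2 stood at 7.54, 131 and 110 CPM. For both genes the high fat diet libraries lay above normal diet labelled DTR. Ctla2a, a protease inhibitor, had the highest ratio, 5.21 (3.66 to 7.49), from 3 against 1799 UMIs. P4ha3, Amigo3, Abcd4 and Tmem198b each had 1 UMI in normal diet, so their ratios of 3.78 to 4.21 carried lower bounds of 1.29 to 1.72. After thinning with a rule sum of at least 1 they were 0.50, 0.98, 1.11 and 0.48.

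Single cells held most UMIs of several of the lowest genes. Cd74 and H2-Eb1, of class II antigen presentation, had ratios of -3.19 and -3.14, but 1 of the 47 members of normal diet labelled DTR held 93.3% and 89.1% of their UMIs. With the cells of 3 or more mural or mesothelial UMIs left out, Cd74 had a ratio of 0.82. Cd274, the checkpoint ligand PD-L1, at -3.51, had 74.5% of its UMIs in 1 cell, Alkal2 40.4% and Apold1 40.5%. After thinning with a rule sum of at least 1, Cd74 had a ratio of -0.98, Cd274 -1.42 and Apold1 -1.91. Trf (transferrin), at 1172 and 120 CPM, a ratio of -3.29 (-3.40 to -3.18), and Lipg (endothelial lipase), at -3.56, had 16.8% and 19.6% in their richest cell. Of 11 measured adipogenic genes 5 were 2-fold lower and 0 higher, beside 4.18% lower and 11.8% higher of all genes. Their median was -0.96 in members and -0.47 in the other cells. Pparg, the master regulator of fat cell formation, stood at 21.5 and 9.06 CPM, a ratio of -1.25.

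**Figure D5:**
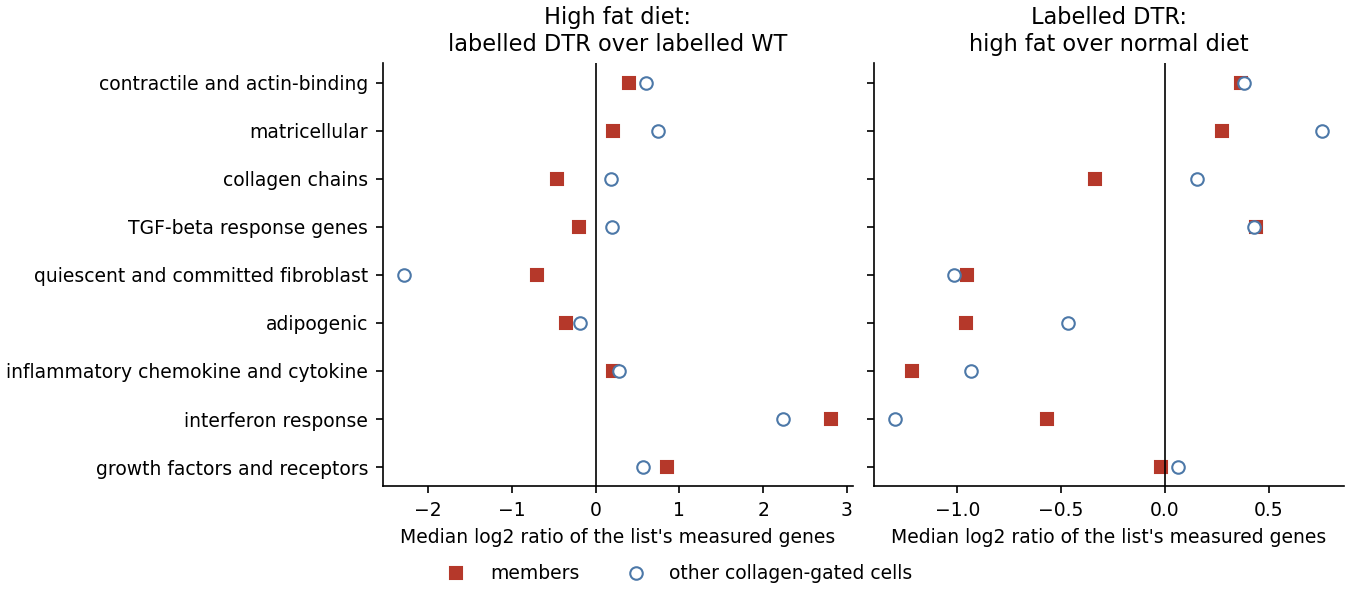
Median log2 ratio of the measured genes of 9 lists between libraries, in members (squares) and in the other collagen-gated cells (open circles), for both comparisons. The interferon list is at 2.81 and 2.23 in the first and at -0.57 and -1.30 in the second; the quiescent list is at -0.71 in members and -2.29 in the other cells in the first.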

How the data were processed

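Single-cell libraries of 4 groups were read from the deposited matrix of raw UMI counts, whole numbers for 31053 genes, which the authors pooled over the libraries. Per the submitters' processing notes the tools were Cell Ranger 3.1.0 and mm10. The 32 sample records were taken as 8 runs of each of 4 libraries, and a barcode's library follows the order of the deposited aggregation list. The members and gene lists were chosen with earlier results of these data known. List symbols were matched through RefSeq synonyms where the files use an older name (Ctgf, Wisp2).

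UMIs were summed per library and cell set and divided by the set's total (CPM). Log2 ratios carry conditional exact binomial intervals, levels exact Poisson intervals and shares Clopper-Pearson intervals, all at 95% and for counting error only. A count of 0 was set to a floor of 3 UMIs per cell set. A gene needed 50 UMIs over both sets, a library 25 members. Called means at least 2-fold. No test was run, and functions were checked on simulated data.

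Genes were named by rule: of members against other cells, up to 15 highest and 10 lowest called genes by the ratio nearest 0; between libraries, the 8 highest and 8 lowest with a UMI in at least 10% of the members of the higher library; and per list up to 4 with the largest ratios. Doublets were marked with Scrublet (scanpy 1.11.5) and kept; 1 member was marked. Python 3.11.15, numpy 2.4.6, scipy 1.17.1, pandas 2.3.3 and, for TMM factors, R 4.3.3 with edgeR 4.0.16 were used. One gene that the rule names is not reported here.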

Additional observations from a re-analysis of the deposited data

How the results depend on the processing

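No paired analysis was possible because each group has 1 library. In the order normal diet labelled WT and DTR, then high fat diet labelled WT and DTR, the first with 0 members where 3 values are given, the member share was 0.0946, 7.65, 4.07 and 42.5% with a rule sum of at least 2, 2.52, 1.54 and 27.1% with at least 5, and 1.22, 0.805 and 20.2% after thinning. Chosen after seeing the data, thinning with a rule sum of at least 1 gave 0.385, 7.14, 5.33 and 50.4%, Tnc alone 2.81, 1.97 and 18.0%, and Ltbp2 alone 1.94, 1.42 and 29.1%. High fat diet labelled DTR was the highest in each. Against other cells, 3 genes were higher and 11 lower with 200 UMIs required, 33 and 129 after thinning, where the third library alone had enough members, 2 and 9 after thinning with a rule sum of at least 1, and 45 lower with Tnc alone. Between high fat diet libraries, 814 were higher and 87 lower with 200 UMIs, and 323 lower with TMM. Between libraries labelled DTR the 200 UMI limit gave 610 and 229. Ratios that changed sign without the cells of 3 or more mural or mesothelial UMIs were Upk3b (3.09) and Cd74 (0.82). Upk3b is itself 1 of the 3 mesothelial genes that chose the cells left out, so nothing is read from its ratio there. Cd74 with Tnc alone (0.23) and H2-Eb1 after thinning with a rule sum of at least 1 (0.49) also changed sign. The cause for Cd74 and H2-Eb1 was not tested. With 2 UMIs, the kinds of high fat diet labelled DTR were 60.0% Tnc and 39.1% Ltbp2. Thinning left too few members to compare libraries, and Ltbp2 alone gave no comparison. With 47 and 49 members, depth limits every gene of few UMIs there.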
